A study of Mus musculus with 4 samples.

Results

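The 10 genes described here are Gdf15 and 9 genes of the integrated stress response, namely Atf3, Atf4, Atf5, Ddit3, Trib3, Chac1, Asns, Fgf21 and Sesn2, taken by symbol from the 44628 genes in the files. All 10 were listed in 3 of the 4 libraries, and control library 1 lacked Fgf21, which was counted there as 0. RNA of single nuclei from mouse hearts was tagged on the BD Rhapsody platform and counted in unique molecular identifiers (UMIs), each of which stands for 1 captured RNA molecule. The 2 Pkp2 cKO libraries came from tamoxifen-injected PKP2fl/fl MCM cre/+ mice, in which a tamoxifen-inducible Cre removes the floxed Pkp2 gene, a component of the desmosome. The 2 control libraries came from mice titled MCM cre/+, also injected with tamoxifen, although their genotype tag reads wt. All mice were 8 weeks old, hearts were taken 2 weeks after tamoxifen, and each library was a pool of 1 male and 1 female mouse, so n = 2 libraries in each group. Neither the promoter that drives the Cre nor the floxed exon is given in the sources used.

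The integrated stress response is a pathway in which 4 kinases, each answering a different stress such as amino acid shortage, misfolded protein in the endoplasmic reticulum, heme shortage or viral RNA, phosphorylate the translation factor eIF2α. General translation then falls, while the mRNA of the transcription factor ATF4 is translated more, and ATF4 with its partners switches on genes for amino acid supply, redox balance and, when stress persists, cell death. GDF15 is a secreted cytokine of the TGF-β superfamily that stressed tissues release, and it acts on the receptor GFRAL, with the co-receptor RET, in the hindbrain. In the heart, ATF4, ATF3 and GDF15 are known to be induced by mitochondrial and mechanical stress.

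ATF4 binds composite C/EBP-ATF elements in its target genes, which were searched here as the letters TGATGNAAN on both strands, from 250 bases before to 50 bases after each gene start. All 10 members, with 12 promoters in all, were found in the RefSeq table of GRCm38.p6. The letters were found for 5 of the 10 members, and in 1299 of all 32851 promoters of that length (3.95%). They were not found for Gdf15, Atf4, Atf5, Ddit3 or Sesn2 in this window. The 5 matches are printed below in the direction of the gene with 10 bases on each side and the matched letters in capitals, because they show the element that these genes share. They lie at chr1:191183426-191183454 on the minus strand for Atf3, chr2:152344029-152344057 on the minus strand for Trib3, chr2:119351038-119351066 on the plus strand for Chac1, chr6:7693214-7693242 on the minus strand for Asns and chr7:45615612-45615640 on the minus strand for Fgf21.
Atf3: ccttctcgcaCTTGCATCAccaagtccgc
Trib3: ttagctcaggTTTACATCAgccgggcggg
Chac1: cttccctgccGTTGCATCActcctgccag
Asns: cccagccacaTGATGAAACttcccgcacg
Fgf21: agacccccccATTGCATCAtccgtccagg
Counted from the RefSeq starts, the first matched letter lies 23 bases before the start in Asns, 111 in Atf3, 140 in Fgf21 and 194 in Chac1. In Trib3 it lies at base 14 of the RefSeq transcript. GENCODE M21 starts Atf3 at chr1:191218039, Trib3 at chr2:152344032, Asns at chr6:7693254 and Chac1 at chr2:119351229, so these distances hold for the RefSeq starts only. From the GENCODE starts the Atf3 and Asns matches lie inside the gene, and the Trib3 match lies before the start. The 250 bases before the start of Gdf15, the member whose RNA differed most between the groups, are printed for comparison and lie at chr8:70632457-70632706 on the minus strand.
Gdf15: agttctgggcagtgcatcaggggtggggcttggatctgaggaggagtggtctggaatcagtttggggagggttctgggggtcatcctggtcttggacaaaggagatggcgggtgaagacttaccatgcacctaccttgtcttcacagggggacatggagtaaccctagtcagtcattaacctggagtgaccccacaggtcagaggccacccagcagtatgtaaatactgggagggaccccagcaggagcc
A match to these letters is a description of the sequence and was not tested as a binding site.

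The libraries held 8424 and 14238 barcodes in the cKO group, against 5947 and 13097 in the control group, with 20992683 and 40536562 UMIs in cKO and 13491201 and 35204091 UMIs in control. Barcodes with more than 5% of UMIs from mitochondrially encoded genes, 48.8 to 53.8% of each library, were left out, and 3642 and 6268 cKO nuclei and 2805 and 6024 control nuclei were kept. Clusters were named by markers, so that a name such as cardiomyocyte means nuclei like that type. The cell type tag reads cardiomyocyte for every library, yet cardiomyocytes made up 33.3 and 25.1% of the kept cKO nuclei and 52.6 and 43.3% of the kept control nuclei. There were 1214 and 1576 cKO cardiomyocyte nuclei with medians of 4294 and 5292 UMIs, and 1476 and 2611 control ones with medians of 3171 and 3972 UMIs. All 12 cardiomyocyte markers were detected in the cardiomyocytes of every library. Any pair of libraries shared 0 to 2 barcodes. The summed level of the 12 markers was 67609 and 66074 CPM (counts scaled to the same total in every library) in cKO cardiomyocytes and 69951 and 68717 CPM in control cardiomyocytes. Pkp2 itself had 614 and 592 CPM in cKO cardiomyocytes, against 564 and 552 CPM in control cardiomyocytes (adjusted p = 0.807, edgeR quasi-likelihood test with Benjamini-Hochberg adjustment), which does not check the deletion, since it is not given which part of the transcript was counted. The cKO library 2 stood apart in that 13.5% of its nuclei were marked as doublets and removed, while the top 6% by doublet score were removed in each of the others, and in that endothelial cluster 14 (3 and 193 nuclei in cKO, 0 and 1 in control) and fibroblast cluster 19 (2 and 65 in cKO, 0 and 0 in control) came almost wholly from it. Esr1 had 3587 and 3348 CPM in cKO cardiomyocytes, against 77.4 and 64.1 CPM in control cardiomyocytes. Tamoxifen-inducible Cre proteins carry an estrogen receptor domain, so Esr1 and transgene transcripts cannot be told apart here. The 2 labels of the controls differ on the Cre allele, and the effects of Pkp2 loss and of the Cre allele therefore cannot be told apart either.

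Gdf15 was the member that rose in cKO cardiomyocytes. Gdf15 (chr8:70629393-70632456, minus strand, GENCODE M21 on GRCm38) gave 131 and 140 UMIs in the cardiomyocytes of the cKO libraries, against 6 and 15 UMIs in those of the control libraries. Scaled by the trimmed mean of M-values (TMM), which evens out library depth and composition, this was 23.7 and 16.5 CPM in cKO cardiomyocytes and 1.18 and 1.35 CPM in control cardiomyocytes. The groups did not overlap, and both cKO libraries were high. The means were 20.1 ± 5.15 CPM in cKO and 1.27 ± 0.118 CPM in control cardiomyocytes (SD, n = 2 libraries each), a log2 fold change of 3.93 with a standard error of 0.34, or 15.3-fold (adjusted p = 0.00151, edgeR quasi-likelihood test with Benjamini-Hochberg adjustment over 15529 genes). The adjusted p was 4.00e-13 by DESeq2. With 2 libraries against 2, an exact permutation test of a single gene cannot go below p = 0.333, so the calls rest on the model across all genes. Each library is a pool of 2 mice, and p-values measure the spread between these pools.

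Of the 10 members, 6 had enough UMIs in cardiomyocytes to be tested, and 1 of the 6 was called at an adjusted p under 0.05, Gdf15. Among all 15529 genes tested in cardiomyocytes, 427 were called, or 2.75%, and 1.26% were called higher in cKO. Before adjustment 4 of the 6 members had p under 0.05, as had 14.2% of all genes. In 5 of the 6 the cKO libraries were both above the control libraries, against 22.3% of all genes. The median log2 fold change was 0.79 over the 6 members and 0.01 over all genes tested. Within the cardiomyocytes, the summed macrophage markers were at 55.2 and 70.1 CPM in cKO and 65.3 and 68.0 CPM in control, the endothelial markers at 227 and 208 CPM in cKO and 273 and 269 CPM in control, and the fibroblast markers at 1533 and 1583 CPM in cKO and 1639 and 1662 CPM in control. Of the marker lists of 12 other classes, 2 were higher in both cKO libraries: the lymphatic endothelial list, at 145 and 180 CPM in cKO and 106 and 128 CPM in control, and the smooth muscle list, at 29.6 and 23.1 CPM in cKO and 11.1 and 21.3 CPM in control. The part of these markers in the Gdf15 difference was not tested.

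**Figure D1:**
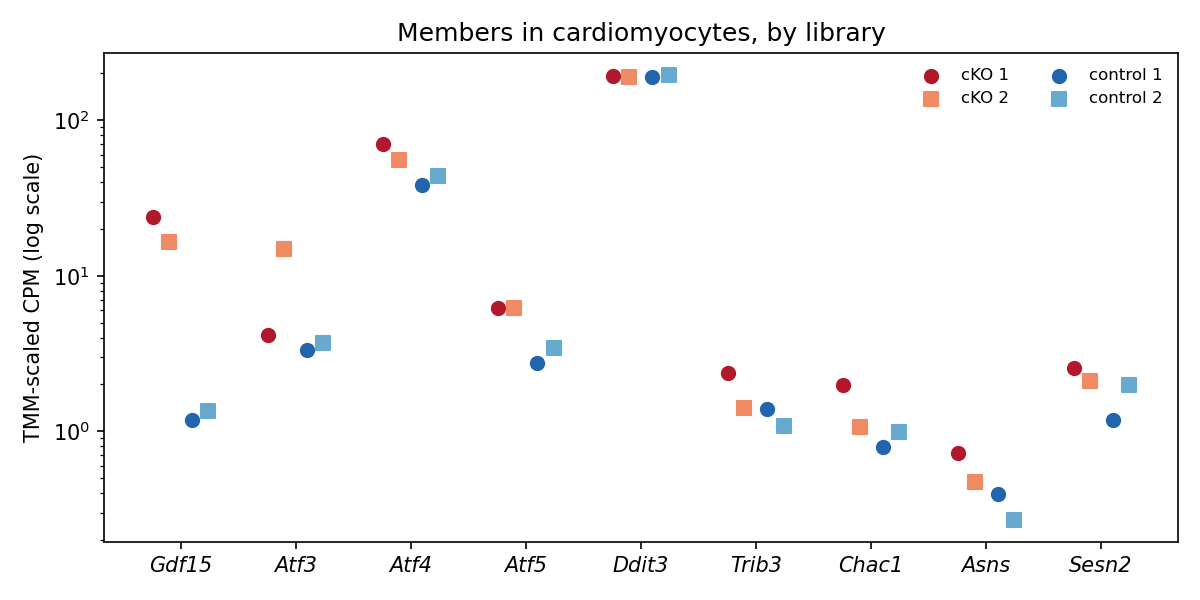
Level of 9 members in cardiomyocytes on a log scale (TMM-scaled CPM, y axis), with 1 point per library and the cKO libraries left of the control libraries for each gene. Gdf15 had 23.7 and 16.5 CPM in cKO against 1.18 and 1.35 CPM in control, while the 4 points of Ddit3 lie between 191 and 195 CPM; Fgf21, with 1 UMI in all cardiomyocytes, is left out.

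None of the 4 transcription factors among the members passed the threshold in cardiomyocytes in the main test. With the replicate number as a block Atf3, Atf4 and Atf5 passed, as did 25.4% of all genes. The labels do not say that these numbers pair the libraries. Atf4 encodes the central factor of the response, which is controlled largely at translation, so that its RNA level says little of its protein. Its RNA (chr15:80255184-80257541) was at 70.5 and 55.6 CPM in cKO cardiomyocytes and 38.3 and 44.1 CPM in control cardiomyocytes. The groups did not overlap, but the difference did not pass the threshold (log2 fold change 0.60, standard error 0.18, edgeR adjusted p = 0.146). Atf5, a related factor that takes part in the mitochondrial branch, had 6.16 and 6.23 CPM in cKO and 2.76 and 3.42 CPM in control cardiomyocytes. It too did not overlap and did not pass (log2 fold change 0.97, standard error 0.32, edgeR adjusted p = 0.204), although it did pass among nuclei with at most 1% mitochondrial UMIs (log2 fold change 2.40, edgeR adjusted p = 0.0364). Atf5 (chr7:44812256-44816658, minus strand) overlaps Nup62 and Il4i1 on the other strand, and whether strand was used in counting is not given.

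Ddit3, which encodes CHOP, the factor linked to death after prolonged stress of the endoplasmic reticulum, overlapped between the groups. It had 191 and 191 CPM in cKO cardiomyocytes and 191 and 195 CPM in control cardiomyocytes (log2 fold change -0.01, standard error 0.13, edgeR adjusted p = 0.986). Ddit3 (chr10:127290774-127296288) overlaps Mars, the methionyl-tRNA synthetase gene, on the other strand, so that reads of the 2 genes may have been shared. Sesn2, a sestrin that restrains mTORC1 signalling, had 2.54 and 2.12 CPM in cKO and 1.18 and 1.98 CPM in control cardiomyocytes (log2 fold change 0.46, standard error 0.46, edgeR adjusted p = 0.743).

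Atf3, a factor induced early in many kinds of stress, was high in the cardiomyocytes of 1 library only. It had 4.17 and 14.9 CPM in cKO cardiomyocytes and 3.35 and 3.69 CPM in control cardiomyocytes, from 23 and 127 UMIs in cKO and 17 and 41 UMIs in control. The log2 fold change was 1.47 with a standard error of 0.53 and did not pass (edgeR adjusted p = 0.243). It was 0.22 without cKO library 2 and 2.06 without cKO library 1, when it passed (edgeR adjusted p = 1.58e-05); it also passed without control library 1 (adjusted p = 0.0214), without control library 2 (0.0282) and without the filter on low counts (0.000773). In cKO library 2, 54 cardiomyocyte nuclei held Atf3 and 1 of them held 18 UMIs, whereas no nucleus of the other libraries held more than 2.

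The targets that act in metabolism were too rare in cardiomyocytes to test. Trib3, a pseudokinase that feeds back on the response, had 13 and 12 UMIs in cKO cardiomyocytes and 7 and 12 UMIs in control cardiomyocytes. Chac1, a glutathione-degrading enzyme, had 11 and 9 UMIs in cKO and 4 and 11 UMIs in control. Asns, asparagine synthetase, had 4 and 4 UMIs in cKO and 2 and 3 UMIs in control. Fgf21, a stress hormone best known from the liver, had 0 and 1 UMIs in cKO and 0 and 0 UMIs in control. At these counts no difference in the 4 genes was detectable, and no fold change is given.

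Gdf15 UMIs lay mostly in cardiomyocytes, which also held many of the UMIs of all genes. Of all Gdf15 UMIs in the kept nuclei of a library, 87.3% of 150 and 87.5% of 160 were in cardiomyocytes in cKO, against 66.7% of 9 and 71.4% of 21 in control. Over all genes, cardiomyocytes held 5432321 and 8498213 UMIs in cKO, and other nuclei 4255242 and 9934890. In control these were 5143720 and 11403797 in cardiomyocytes and 1739668 and 5843413 in other nuclei. Control Gdf15 was at 1.18 and 1.35 CPM in cardiomyocytes (TMM-scaled) and 1.72 and 1.03 CPM in other nuclei (without TMM scaling). The control libraries thus disagreed in direction. Macrophages followed with 8 and 10 Gdf15 UMIs in cKO and 2 and 1 Gdf15 UMIs in control. Fibroblasts held 6 and 5 UMIs in cKO and 1 and 2 in control, endothelial nuclei 4 and 3 in cKO and 0 and 1 in control, and mural nuclei 0 and 1 in cKO and 0 and 1 in control. Gdf15 was therefore below the filter on low counts in all 4 of these classes.

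**Figure D2:**
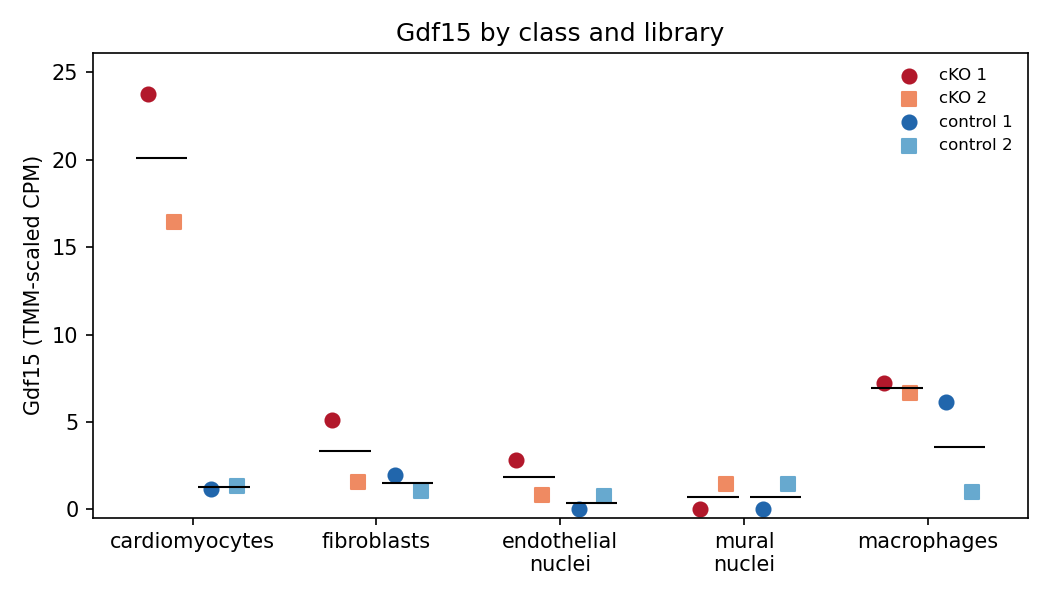
Gdf15 level (TMM-scaled CPM, y axis) in 5 classes of nuclei, with 1 point per library, cKO libraries left of control libraries and a short line at each group mean. Cardiomyocytes of cKO libraries stand at 23.7 and 16.5 CPM, and macrophages, the next class, at 7.22 and 6.65 CPM in cKO and 6.17 and 1.01 CPM in control.

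The other members lay in different classes. Cardiomyocytes held 79.0 and 73.0% of the Ddit3 UMIs of the cKO libraries and 87.3 and 83.2% of those of the control libraries, and 52.4 and 37.5% of the Atf4 UMIs in cKO and 60.8 and 56.6% in control. For Trib3 the cardiomyocytes held 22.4 and 10.3% in cKO and 24.1 and 16.9% in control, and for Atf5 25.8 and 17.2% in cKO and 29.8 and 21.2% in control. Both genes thus lay mainly outside cardiomyocytes, in cKO and in control. Cardiomyocytes were also fewer of the kept nuclei in cKO (33.3 and 25.1%) than in control (52.6 and 43.3%), and the shares of UMIs were not adjusted for that.

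The order of the classes differed from gene to gene, with levels scaled by TMM within each class. Atf5 was highest in fibroblasts, at 41.7 and 53.2 CPM in cKO and 41.0 and 51.1 CPM in control, and lowest in cardiomyocytes. Trib3 was highest in endothelial nuclei in 3 of the 4 libraries, at 16.3 and 18.4 CPM in cKO and 13.3 and 22.7 CPM in control, while control library 1 had 18.5 CPM in macrophages from 6 UMIs. Ddit3 was highest in cardiomyocytes in all 4 libraries, and mural nuclei had 114 and 82.6 CPM in cKO and 105 and 96.5 CPM in control. Atf4 was lowest in cardiomyocytes in all 4 libraries, and in macrophages it had 81.2 and 79.1 CPM in cKO and 80.2 and 72.0 CPM in control.

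Nuclei differ in depth, so shares of nuclei with a UMI were compared after each nucleus had been thinned at random to 1000 UMIs and shallower nuclei had been left out. Then 19 of 1098 and 17 of 1470 cKO cardiomyocyte nuclei held Gdf15, or 1.73% and 1.16%, against 0 of 1410 and 3 of 2541 control cardiomyocyte nuclei. The count of 0 allows a share of up to 0.213%. The exact binomial 95% intervals were 1.04 to 2.69% and 0.675 to 1.85% in the cKO libraries, and they cover counting error only. In endothelial nuclei the shares were 0.427% (3 of 702) and 0 of 1836 in cKO and 0 of 183 and 0 of 759 in control. In macrophages they were 0.425% (2 of 471) and 0.541% (4 of 739) in cKO and 0 of 163 and 0 of 510 in control, and the exact interval in cKO library 2 (0.148 to 1.38%) includes the 0.163% that the endothelial count of 0 in that library allows.

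A UMI in a nucleus is not in itself expression there, since free RNA in the suspension is counted too. Ttn, the giant sarcomere protein of muscle, was held by 49.9 to 74.7% of fibroblast, endothelial, mural and macrophage nuclei at 1000 UMIs. Gdf15 was therefore set against Ttn, as the number of Gdf15 UMIs per 1000 Ttn UMIs with its exact Poisson 95% interval. In cKO libraries the ratio was 1.95 (1.63 to 2.32) and 0.920 (0.774 to 1.09) in cardiomyocytes and 3.47 (2.09 to 5.42) and 1.27 (0.777 to 1.97) in all other nuclei. In control libraries it was 0.0992 (0.0364 to 0.216) and 0.0735 (0.0411 to 0.121) in cardiomyocytes and 0.898 (0.185 to 2.62) and 0.483 (0.177 to 1.05) in all other nuclei, from 3 and 6 Gdf15 UMIs. The ratio was higher outside cardiomyocytes than inside them in every library. The intervals inside and outside cardiomyocytes overlapped in both cKO libraries and in control library 1, and not in control library 2, and the difference was not tested. Outside cardiomyocytes Gdf15 was at 4.47 and 2.01 CPM in cKO and 1.72 and 1.03 CPM in control, without TMM scaling, so the groups did not overlap there either.

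Whether the Gdf15 change differed between cardiomyocytes and each other class was tested in 1 fit per pair with the library as a block. The log2 fold change was larger in cardiomyocytes by 2.77 than in fibroblasts (edgeR adjusted p = 0.200), by 2.43 than in endothelial nuclei (0.692), by 3.82 than in mural nuclei (0.816) and by 2.29 than in macrophages (0.488). Each comparison had enough UMIs for 7 members (8 for endothelial nuclei), Chac1 and Fgf21 were in none, and no member tested was called. Of all genes, 7.33% were called for fibroblasts, 3.27% for endothelial nuclei, 0.927% for mural nuclei and 1.35% for macrophages. Without control library 2 the sign turned for endothelial nuclei (-1.22) and mural nuclei (-0.41), so at these counts the Gdf15 change is not shown to be particular to cardiomyocytes.

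Within the cardiomyocytes Gdf15 was held by a small share of the nuclei. After thinning to 3000 UMIs, 31 of 912 nuclei (3.40%, exact 95% interval 2.32 to 4.79%) and 36 of 1251 nuclei (2.88%, 2.02 to 3.96%) held it in cKO, against 3 of 811 (0.370%, 0.0764 to 1.08%) and 7 of 1846 (0.379%, 0.153 to 0.780%) in control. Neither interval of the cKO libraries reaches those of the control libraries. Thinning left out 302 and 325 cKO and 665 and 765 control cardiomyocyte nuclei, and without it the shares were 5.19 and 4.31% in cKO and 0.407 and 0.460% in control. The UMIs were uneven among the holding nuclei. Without thinning, 11 and 16 cKO nuclei held at least 3 Gdf15 UMIs each and together 48.9 and 55.0% of all Gdf15 UMIs of cKO cardiomyocytes, with up to 10 and 17 in 1 nucleus, while 0 and 1 control nuclei held 3 or more.

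The other members were spread differently over cardiomyocyte nuclei at 3000 UMIs. Ddit3 was held by 40.2 and 37.7% of cKO nuclei and 39.0 and 37.2% of control nuclei. Atf4 was held by 19.3 and 13.3% of cKO nuclei and 10.4 and 12.0% of control nuclei, so that both cKO libraries were above both control libraries. Atf5, Sesn2, Trib3, Chac1 and Atf3 were each held by at most 2.16% of the nuclei of any library, Asns by 2 and 1 nuclei in cKO and 1 and 1 in control, and Fgf21 by 1 nucleus of cKO library 2.

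The cardiomyocyte nuclei were also clustered on genes that left out the members and their pathway lists, so that Gdf15 had no part in the clusters. The nuclei fell mainly into 4 clusters, with a small cluster (cluster 15) of 9 and 14 nuclei in cKO and 41 and 49 in control that held no Gdf15 UMI, and different clusters held most of the cardiomyocytes of the 2 groups. The cluster led by Esr1, Gh and Myh7 (cluster 5) held 55.0 and 59.6% of cKO cardiomyocytes and 2.08 and 1.34% of control cardiomyocytes. Cluster 0, with Egf, Mylk4 and Pfkfb1 among its leading genes, and cluster 2, with Gm12381, Cntn5 and Rp1, held 18.3 and 13.9% and 8.62 and 8.29% of cKO cardiomyocytes, against 48.5 and 51.7% and 42.7 and 42.8% of control cardiomyocytes. Cluster 9, whose leading genes by fold include Gdf15 itself and Nppa, Nppb and Ankrd1, known as markers of the stressed and fetal-like heart, held 17.3 and 17.3% of cKO and 3.96 and 2.29% of control cardiomyocytes. As the clusters differ in genes that themselves differ between the groups, these sizes describe the sorting of the nuclei and are not tested.

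Gdf15 was unevenly spread over these clusters. Cluster 9 held 94 and 87 Gdf15 UMIs in cKO, 71.8 and 62.1% of the UMIs in cKO cardiomyocytes, and 1 and 2 UMIs in control. Its level there, in CPM without TMM scaling, was 92.1 and 59.5 in cKO and 5.10 and 8.54 in control. In cluster 5 it was 6.37 and 8.13 CPM in cKO and 0 and 0 in control, from which no fold is given. In cluster 0 it was 14.2 and 0.96 CPM in cKO and 1.70 and 0.72 CPM in control, so the libraries overlapped there. In cluster 2 it was 10.1 and 13.2 CPM in cKO and 0.41 and 1.69 CPM in control. At 3000 UMIs 10.7% (17 of 159) and 7.83% (17 of 217) of the cKO nuclei of cluster 9 held Gdf15, against 1.37% (7 of 511) and 2.22% (17 of 765) in cluster 5. When cluster 9 was left out, an alternative chosen after seeing the data, Gdf15 still rose in the remaining cardiomyocytes (log2 fold change 2.79, edgeR adjusted p = 0.00888).

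**Figure D3:**
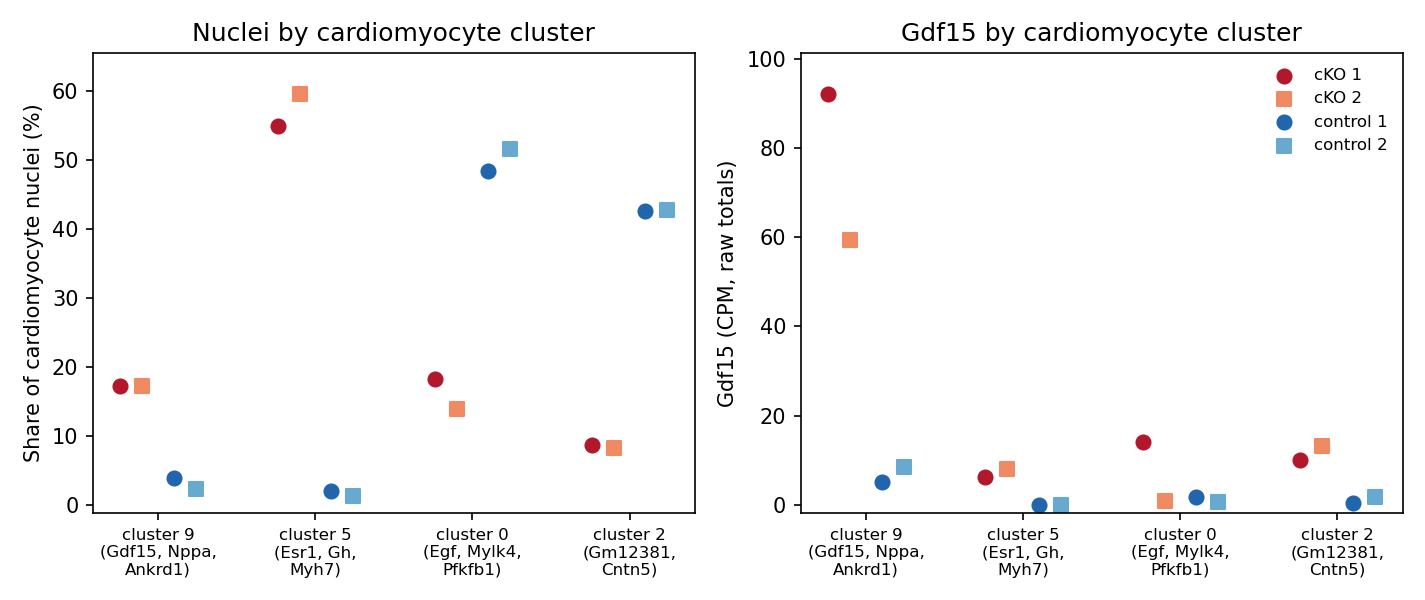
Share of the library's cardiomyocyte nuclei (percent, left) and Gdf15 level (CPM without TMM scaling, right) in the 4 largest cardiomyocyte clusters, with 1 point per library and cKO left of control. Cluster 9, with 17.3% of the nuclei of each cKO library, has the highest Gdf15, 92.1 and 59.5 CPM in cKO against 5.10 and 8.54 CPM in control.

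Ddit3, Atf4 and Atf5 overlapped between the groups in cluster 9. Ddit3 was at 202 and 195 CPM in its cKO nuclei and 235 and 188 CPM in its control nuclei, and Atf4 at 110 and 63.6 CPM in cKO and 71.4 and 55.5 CPM in control. Atf5 was at 12.7 and 11.6 CPM in cKO and 0 and 17.1 CPM in control. Atf3 was at 7.84 and 21.9 CPM in cKO and 5.10 and 0 CPM in control.

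The nuclei were next split by whether they held a UMI of a gene of cardiac stress, at 3000 UMIs. Nppb encodes the B-type natriuretic peptide, released by strained ventricles. Gdf15 was held by 5.22% (31 of 594) and 4.45% (32 of 719) of cKO nuclei with Nppb and by 0% (0 of 318) and 0.752% (4 of 532) of cKO nuclei without it. The exact interval of the count of 0 reaches 1.15%. In control nuclei the shares were 0.521 and 0.662% with Nppb and 0.323 and 0.324% without it, from 1 and 2 nuclei with both genes. For Ankrd1, a stretch-responsive repeat protein of the sarcomere, the shares were 4.20% (30 of 715) and 3.42% (32 of 935) in cKO nuclei with it and 0.508% (1 of 197) and 1.27% (4 of 316) in those without. In both cKO libraries the Gdf15 nuclei thus lay mainly among nuclei with Nppb and Ankrd1.

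Esr1, the gene that reads as the estrogen receptor or the Cre transgene, divided the nuclei the other way. Gdf15 was held by 1.87% (11 of 587) and 1.93% (17 of 879) of cKO nuclei with an Esr1 UMI and by 6.15% (20 of 325) and 5.11% (19 of 372) of those without. For Myh7, the slow myosin heavy chain of fetal and stressed ventricles in mice, the shares were 2.70 and 2.63% in cKO nuclei with it and 5.31 and 3.54% in those without. The Myh7 direction depended on the depth. At 2000 UMIs it turned, with 2.79 and 2.31% in nuclei with Myh7 and 2.32 and 2.25% in those without, and without thinning the libraries disagreed, with 5.10 and 4.43% in nuclei with Myh7 and 5.49 and 3.92% in those without. The directions for Nppb, Ankrd1 and Esr1 were the same in both cKO libraries at 2000 UMIs and without thinning. Nppa and Acta1, also fetal heart genes, went the way of Nppb: 5.71 and 5.93% of cKO nuclei with Nppa held Gdf15 against 3.10 and 2.51% without, and 6.67 and 4.93% with Acta1 against 2.90 and 2.61% without.

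**Figure D4:**
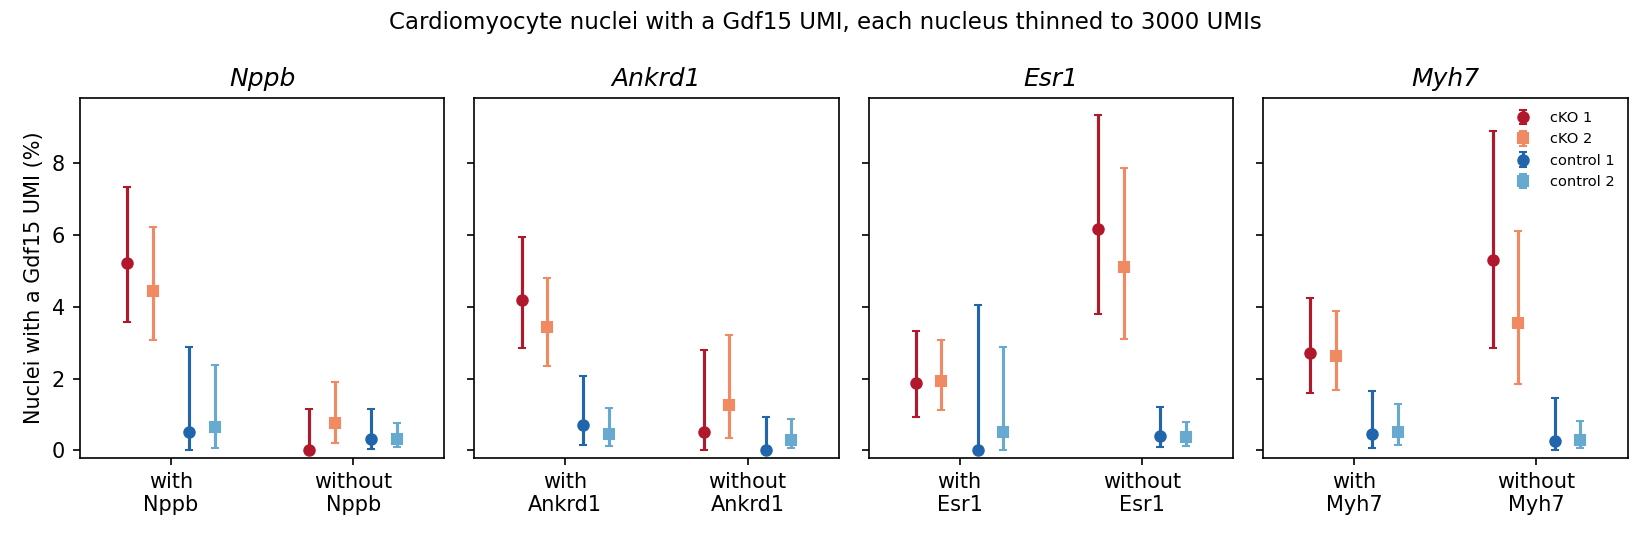
Percent of cardiomyocyte nuclei with a Gdf15 UMI at 3000 UMIs (y axis) among nuclei with and without a UMI of Nppb, Ankrd1, Esr1 or Myh7, with 1 point per library and exact 95% binomial bars. In cKO nuclei the share was 5.22 and 4.45% with Nppb and 0 and 0.752% without it, and 1.87 and 1.93% with Esr1 and 6.15 and 5.11% without it.

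The cKO nuclei with Gdf15 were then set against the other cKO cardiomyocyte nuclei of the same library over all genes, as sums per library of nuclei thinned to 3000 UMIs, with the library as a block. The comparison had 31 and 36 nuclei with Gdf15 and 881 and 1215 without. Before thinning their median depths were 4886 and 6437 UMIs with Gdf15 and 5003 and 5994 UMIs without. Among 10264 genes tested, 93 were called (0.906%), 26 higher (0.253%) and 67 lower (0.653%) in nuclei with Gdf15. The counts depended on the depth and the tool, with 7 higher at 2000 UMIs, 8 by DESeq2 and 89 without thinning, and 25 lower by DESeq2 and 160 without thinning. Of the 26 higher, 12 also rose in cKO against control cardiomyocytes and 0 fell; of the 67 lower, 9 fell and 1 rose. These 2 comparisons share the cKO nuclei.

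The natriuretic peptides and Ankrd1 were higher in nuclei with Gdf15. Nppb had 1538 and 1140 CPM in nuclei with Gdf15 and 847 and 523 CPM in the others (log2 fold change 0.99, edgeR adjusted p = 1.84e-06). Ankrd1 had 3283 and 2670 CPM with Gdf15 and 1959 and 1677 CPM in the others (0.71, adjusted p = 4.48e-05). Nppa had 217 and 272 CPM with Gdf15 and 102 and 107 CPM in the others (1.23, adjusted p = 0.00427). All 3 were higher in both libraries, and all 3 also rose in cKO against control cardiomyocytes. Esr1 was lower, at 1259 and 1982 CPM with Gdf15 and 4073 and 3714 CPM in the others (-1.26, adjusted p = 2.51e-08). Acta1 (1.08, adjusted p = 0.0841) and Myh7 (-0.12, adjusted p = 0.883) did not pass.

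The largest called increases in nuclei with Gdf15 were of Tenm4, a teneurin of the cell surface (3.39, edgeR adjusted p = 0.0123), Gm19410 (2.85), AA986860 (2.81), 1700042D02Rik (2.78), Gm29185 (2.24), Rasef (2.19), Elf4, an ETS transcription factor (1.85, adjusted p = 0.0114), and Gask1b (1.74, adjusted p = 0.0140), all as log2 fold changes. None of these 8 was called after thinning to 2000 UMIs, where Tenm4 was below the filter on low counts. The largest called decreases were of Mov10l1 (-2.32, adjusted p = 0.00223), Gm24474 (-1.98), Cirbil (-1.88), Car14, a membrane carbonic anhydrase (-1.81), ENSMUSG00000123644 (-1.54), Gm26862 (-1.52), Rpl3l, a ribosomal protein of striated muscle (-1.47, adjusted p = 0.000869), and Chd6 (-1.44, adjusted p = 0.00119). Of these 8, only Gm26862 was still called at 2000 UMIs. Mov10l1 too rested on few UMIs in nuclei with Gdf15, at 10.3 and 45.3 CPM against 121 and 165 CPM in the others.

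Of the other stress members only Ddit3, Atf4 and Atf3 had enough UMIs to be tested in this comparison, and none was called. Ddit3 had the lowest p among them, with a log2 fold change of 0.46 (edgeR adjusted p = 0.541), against -0.12 for Atf4 (adjusted p = 0.970) and -1.04 for Atf3 (adjusted p = 0.929). Per nucleus, 16 of 31 and 19 of 36 nuclei with Gdf15 held Ddit3 (51.6 and 52.8%), against 39.8 and 37.3% of the other cKO nuclei. The direction turned in cKO library 2 at 2000 UMIs, with 44.4 and 25.8% of nuclei with Gdf15 against 29.8 and 29.5% of the others, and the log2 fold change was -0.075 at that depth. Atf4 was held by 8 of 31 and 4 of 36 (25.8 and 11.1%), against 19.1 and 13.3% of the other cKO nuclei, so the libraries disagreed in direction. Atf5 was found together with Gdf15 in 0 and 2 nuclei, Trib3 in 1 and 1, Chac1 in 1 and 0, Atf3 in 0 and 1, and Sesn2, Asns and Fgf21 in none of the 67. At least 1 other member was held by 64.5 and 61.1% of nuclei with Gdf15, against 50.7 and 49.0% of the other cKO nuclei and 47.0 and 46.2% of the control nuclei without Gdf15. Without thinning, 6.35 and 11.8% of nuclei with Gdf15 held Atf5, against 1.91 and 2.65% of the other cKO nuclei. For Trib3 it was 4.76 and 7.35% against 0.869 and 0.398%, and for Chac1 6.35 and 4.41% against 0.434 and 0.398%. For Sesn2 it was 4.76 and 2.94% against 0.869 and 0.995%. These shares rest on 2 to 8 nuclei with both genes per library, were not adjusted for depth and were not tested. At 2000 UMIs Sesn2 was found with Gdf15 in 0 and 0 nuclei and Trib3 in 0 and 2.

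Across the 20 sums of 5 classes in 4 libraries, the genes with the pattern most like that of Gdf15 were Serpinb1c (Pearson r = 0.846), Mob1b (0.810), Rttn (0.777), Osbp (0.772), Gm15972 (0.766) and Fuca2 (0.757), out of 15528 genes compared. The sums share libraries and depth, so these are descriptions. The 5 other members compared were less like it, with 0.508 for Atf3, 0.315 for Ddit3, 0.0150 for Atf4, -0.147 for Sesn2 and -0.175 for Atf5. Serpinb1c, a serpin of the clade B family, itself rose in cKO cardiomyocytes, with 3.81 and 2.70 CPM in cKO and 0.592 and 0.540 CPM in control (log2 fold change 2.49, edgeR adjusted p = 0.0414), as did Mob1b, a Hippo pathway adaptor (0.76, adjusted p = 0.0451).

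In macrophages the member that rose was Atf3. Its level was 33.4 and 48.5 CPM in cKO macrophages and 6.17 and 8.11 CPM in control macrophages, from 37 and 73 UMIs in cKO and 2 and 8 UMIs in control. The groups did not overlap. The means were 41.0 ± 10.7 CPM in cKO and 7.14 ± 1.37 CPM in control macrophages (SD, n = 2 libraries each), with a log2 fold change of 2.43 and a standard error of 0.49 (edgeR adjusted p = 0.0355). Sesn2 in macrophages was at 12.6 and 12.0 CPM in cKO and 0 and 7.10 CPM in control, from 14 and 18 UMIs in cKO and 0 and 7 in control (edgeR adjusted p = 0.589). In macrophages 6 members were tested and 1 was called, against 0.868% of 11056 genes called, or 0.579% called higher. The Atf3 call was lost by DESeq2 (adjusted p = 0.0938), without control library 2 (log2 fold change 2.72, adjusted p = 0.135), with nuclei of at least 1000 UMIs (adjusted p = 0.0635) and with at most 1% mitochondrial UMIs.

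The share of macrophage nuclei with an Atf3 UMI at 1000 UMIs was 2.97% (14 of 471) and 3.25% (24 of 739) in cKO, against 1.23% (2 of 163) and 0.784% (4 of 510) in control. In the macrophage cluster 6 the level was 48.6 and 46.6 CPM in cKO and 9.15 and 11.4 CPM in control, and in cluster 11 it was 17.5 and 38.5 CPM in cKO and 0 and 2.51 CPM in control. Cluster 11, which also carried markers of endothelial and fibroblast nuclei, held 35.3 and 7.95% of cKO macrophages and 26.9 and 29.97% of control macrophages. Within macrophages the summed macrophage markers were at 5702 and 8835 CPM in cKO and 8329 and 9411 CPM in control, the cardiomyocyte markers at 6297 and 6099 CPM in cKO and 11914 and 7311 CPM in control, and the granulocyte markers at 156 and 148 CPM in cKO and 66.0 and 73.9 CPM in control. The part of these markers in the Atf3 difference was not tested. The Atf3 change was smaller in cardiomyocytes than in macrophages by a log2 value of 1.18, given as -1.18 for cardiomyocytes minus macrophages, a difference that did not pass (edgeR adjusted p = 0.537).

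**Figure D5:**
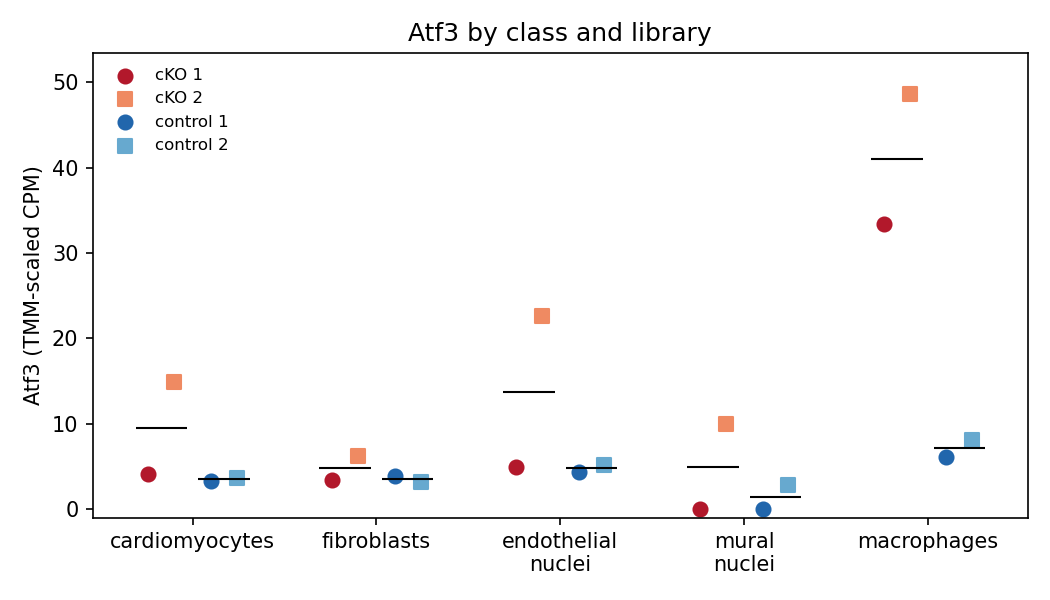
Atf3 level (TMM-scaled CPM, y axis) in 5 classes of nuclei, with 1 point per library, cKO libraries left of control libraries and a short line at each group mean. Macrophages stand at 33.4 and 48.5 CPM in cKO and 6.17 and 8.11 CPM in control, while in cardiomyocytes and endothelial nuclei cKO library 2 stands apart from the other libraries.

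In endothelial nuclei Atf3 was again high in cKO library 2 alone, with 4.95 and 22.6 CPM in cKO and 4.42 and 5.14 CPM in control. It did not pass the filter on low counts there. In that library 43 Atf3 UMIs, 54.4% of those in its endothelial nuclei, lay in endothelial cluster 14, which came almost wholly from it.

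None of the members tested in fibroblasts (4), endothelial nuclei (4) or mural nuclei (3) was called by edgeR or by DESeq2. By edgeR 4.07% of all genes tested were called in fibroblasts, 0.184% in endothelial nuclei and 0.215% in mural nuclei. Before adjustment 0 members had p under 0.05 in fibroblasts, 0 in endothelial nuclei and 1 in mural nuclei, against 14.4%, 10.5% and 5.75% of all genes in those classes. In fibroblasts, Atf5 (log2 fold change 0.02), Ddit3 (-0.09) and Trib3 (-0.24) all overlapped between the groups. Atf4 was at 80.1 and 89.2 CPM in cKO fibroblasts and 76.1 and 61.4 CPM in control fibroblasts (log2 fold change 0.35, edgeR adjusted p = 0.582), and at 79.3 and 74.9 CPM in cKO endothelial nuclei and 61.9 and 63.8 CPM in control ones (0.28, adjusted p = 0.764). Ddit3 was at 46.0 and 45.4 CPM in cKO endothelial nuclei and 86.3 and 51.4 CPM in control ones (-0.50, adjusted p = 0.596). Atf5 in mural nuclei was at 40.6 and 34.2 CPM in cKO and 15.0 and 14.4 CPM in control, from 10 and 24 UMIs in cKO and 3 and 10 in control (1.31, edgeR adjusted p = 0.790), and it was the member under 0.05 before adjustment.

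Further genes of the pathway were counted in cardiomyocytes from lists by role. None was called by edgeR in any list, where 2.75% of all genes were, and before adjustment 14.2% of all genes had p under 0.05 in either direction. Among the eIF2 kinases, the phosphatase subunits and the mitochondrial relay (Oma1, Dele1), 9 of 9 were tested, and before adjustment 2 had p under 0.05 and were higher and 1 was lower. Ppp1r15a, the stress-induced subunit that takes the phosphate off eIF2α, had 26.1 and 21.9 CPM in cKO and 13.4 and 11.5 CPM in control cardiomyocytes (log2 fold change 0.95, edgeR adjusted p = 0.0543). Eif2ak2, which encodes the RNA-activated kinase PKR, had 15.9 and 19.5 CPM in cKO and 9.67 and 12.5 CPM in control (0.66, adjusted p = 0.231). Both were without overlap between the groups and neither passed.

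Of the partner and feedback genes of ATF4, 7 of 8 were tested, of which 2 were higher and 1 lower before adjustment and DESeq2 called 1, Vldlr (adjusted p = 0.0237). Vldlr, a lipoprotein receptor, had 305 and 301 CPM in cKO and 463 and 448 CPM in control (log2 fold change -0.59, edgeR adjusted p = 0.0656), and Cebpg, a dimer partner of ATF4, had 22.1 and 21.2 CPM in cKO and 14.6 and 12.8 CPM in control (0.67, adjusted p = 0.149). In the list of serine and one-carbon genes 6 of 9 were tested, with a median log2 fold change of -0.28. Its lowest p before adjustment was that of Cth, of the transsulfuration pathway, with 13.05 and 9.52 CPM in cKO and 18.9 and 15.4 CPM in control (-0.61, adjusted p = 0.305), followed by Mthfd2, a mitochondrial folate enzyme, with 14.0 and 9.05 CPM in cKO and 14.6 and 16.9 CPM in control (-0.49, adjusted p = 0.460). Among amino acid transporters 6 of 8 were tested, with a median of 0.40 and 3 higher before adjustment. Slc7a1, a cationic amino acid carrier, had 40.2 and 42.6 CPM in cKO and 25.3 and 23.4 CPM in control (0.77, adjusted p = 0.0549), and Slc38a2, a glutamine and alanine carrier, 495 and 413 CPM in cKO and 351 and 278 CPM in control (0.53, adjusted p = 0.187).

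All 13 genes of the tRNA synthetase list, which includes the tRNA exporter Xpot, were tested, with a median of 0.12. Aars1, the alanyl-tRNA synthetase, had 36.8 and 27.9 CPM in cKO and 20.1 and 20.4 CPM in control (log2 fold change 0.66, edgeR adjusted p = 0.157), and Sars1, the seryl-tRNA synthetase, had 24.1 and 34.6 CPM in cKO and 20.5 and 24.7 CPM in control, with overlap (0.38, adjusted p = 0.516). In the list of the endoplasmic reticulum response, 12 of 13 were tested, with a median of -0.14, and 0 were higher and 2 lower before adjustment, a share near the 14.2% of all genes. The libraries did not overlap for 0 that were higher and 6 that were lower in cKO, against 22.3% and 21% of all genes. Pdia4, a disulfide isomerase, had 4.17 and 4.35 CPM in cKO and 9.87 and 7.38 CPM in control (-0.99, adjusted p = 0.167), and Herpud1, of the degradation machinery there, had 211 and 145 CPM in cKO and 355 and 235 CPM in control (-0.73, adjusted p = 0.193). The mitochondrial chaperones and proteases, 7 of 7 tested, had a median of 0.13, with Hspe1, a chaperonin, at 16.3 and 13.1 CPM in cKO and 9.27 and 10.5 CPM in control (0.55, adjusted p = 0.338) and Afg3l2, an inner membrane protease, at 87.4 and 103 CPM in cKO and 81.5 and 82.7 CPM in control (0.22, adjusted p = 0.593).

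Gdf15 is also a known target of p53, and of the p53 targets 10 of 12 were tested, with 5 higher and 0 lower before adjustment, against 14.2% of all genes in either direction, and a median of 0.38. The libraries did not overlap for 5 that were higher and 2 that were lower in cKO, against 22.3% and 21% of all genes. Cdkn1a, the cell cycle inhibitor p21, had 15.6 and 16.2 CPM in cKO and 10.7 and 10.4 CPM in control (log2 fold change 0.60, edgeR adjusted p = 0.234), and Eda2r, a receptor of the TNF receptor family, 6.52 and 6.35 CPM in cKO and 2.76 and 4.23 CPM in control (0.82, adjusted p = 0.309).

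The receptor of GDF15 was near absent from these nuclei. Gfral had 0 and 0 UMIs in cKO cardiomyocytes and 0 and 2 UMIs in control cardiomyocytes, and 0 in fibroblasts, endothelial nuclei, mural nuclei and macrophages. Ret had 7 and 4 UMIs in cKO cardiomyocytes and 7 and 18 in control cardiomyocytes. It was higher in fibroblasts, where it fell in cKO, with 15.3 and 18.2 CPM in cKO fibroblasts and 58.5 and 69.4 CPM in control fibroblasts (log2 fold change -1.93, standard error 0.28, edgeR adjusted p = 0.00189). Ret is also the receptor, with other partners, of the GDNF family, and no cause of its change was tested.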

How the data were processed

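The authors deposited raw UMI counts, whole numbers for each gene in each nucleus, as 1 matrix per library, per the file headers. The submitters' processing notes name the build mm10; aligner, counter, annotation and use of strand are not given in the sources used. Of 44628 gene identifiers 27169 matched GENCODE M21 without version numbers. The members and gene lists were chosen with earlier results of these data known.

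Nuclei had at least 300 genes, at least 500 UMIs and at most 5% mitochondrial UMIs, and the top 0.5% by UMIs in each library were removed. Doublets were scored with Scrublet (scanpy 1.11.5); where its threshold marked under 0.5%, the top 6% were removed. Clusters (2000 variable genes, 30 components, 15 neighbours, Leiden resolution 1) were named by at least 3 markers found in at least 10% of nuclei and at 2-fold, in a rule whose details were set after seeing the data. Counts were summed per library and class and tested with edgeR 4.0.16 (R 4.3.3; filterByExpr, TMM, quasi-likelihood), with Benjamini-Hochberg adjustment over all genes tested and a threshold of 0.05; DESeq2 1.42.0, no filter, a replicate block, leaving out each library, other limits on nuclei and no doublet removal were alternatives. On simulated cardiomyocyte counts edgeR recovered 48.9% of genes with a true log2 change of 1 and 88.2% with 2. For the comparison of nuclei with and without Gdf15 these shares were 8.33% and 31.7%, and for macrophages 15.2% and 84.2%.

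Genes named were the members and the 2 list genes with the lowest p in each list. Also named were the 8 largest called changes in each direction in the comparison by Gdf15 and the 6 genes most like Gdf15. Of these 6, Serpinb1c, Mob1b and Fuca2 were picked for their calls, after their values were seen, as was Ret. Likeness used log2(CPM + 1). Exact binomial and Poisson intervals were at 95%, and a count of 0 allows 3 counts.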

Additional observations from a re-analysis of the deposited data

Results flagged for a closer look

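Barcodes with over 5% mitochondrial UMIs were left out of every comparison, 4530 and 6944 in cKO and 2951 and 6672 in control. In both cKO libraries 5 members stood above both control libraries in their summed counts, in CPM without TMM scaling, and none of these differences was tested. Gdf15 was at 7.50 and 4.61 CPM in cKO and 3.63 and 1.12 CPM in control. Atf3 was at 8.88 and 13.3 CPM in cKO and 3.80 and 4.54 CPM in control. Atf4 was at 88.0 and 82.4 CPM in cKO and 61.5 and 59.8 CPM in control, and Atf5 at 33.8 and 35.4 CPM in cKO and 23.5 and 28.6 CPM in control. Sesn2 was at 2.76 and 5.16 CPM in cKO and 1.56 and 2.55 CPM in control. Of the other members, Chac1 was below both control libraries, at 1.68 and 1.33 CPM in cKO and 2.42 and 1.93 CPM in control, as was Asns, at 2.17 and 2.83 CPM in cKO and 3.11 and 2.86 CPM in control. Over all 25492 genes with at least 10 UMIs in these barcodes, 34.6% were higher and 13.8% lower in both cKO libraries. These barcodes mix all cell classes, whose shares differ between the groups.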

How the results depend on the processing

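Gdf15 kept its direction and its call in cardiomyocytes under every alternative run. With n = 2 libraries each, the count of members called in cardiomyocytes, 1, became 2 without the filter on low counts and 2 at no more than 1% mitochondrial UMIs. Without the filter the count over all genes rose as well, as given below. At no more than 1% mitochondrial UMIs the count over all genes in cardiomyocytes is not given here. With the replicate number as a block the count of members was 4, adding Atf3, Atf4 and Atf5, while 25.4% of all genes were called, against 2.75% without the block. The labels do not say that the numbers pair the libraries, and the deviations of same-numbered libraries correlated at 0.222 to 0.471 over 5 classes. In macrophages the count, 1, became 0 by DESeq2, 0 at no more than 1% mitochondrial UMIs, 0 at 1000 or more UMIs and 0 to 1 with each library left out. The extra change of Gdf15 in cardiomyocytes spanned -1.22 to 3.01 against endothelial nuclei and -0.41 to 8.63 against mural nuclei with each library left out. Of genes higher with Gdf15, 26 became 7 at 2000 UMIs, 89 without thinning and 8 by DESeq2; of genes lower, 67 became 160 without thinning and 25 by DESeq2. The shares of cKO cardiomyocytes with Gdf15 were 5.19 and 4.31% without thinning.

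Signs turned only among values near 0 or from few UMIs. Ddit3 in cardiomyocytes was 0.00028 without the filter, and Trib3 in fibroblasts 0.18 at 1000 or more UMIs. Atf5 in endothelial nuclei was 0.00029 without doublet removal and 0.011 in the clustering without the lists. With each library left out, Atf5 spanned -0.19 to 0.24 in fibroblasts and -0.37 to 1.03 in endothelial nuclei, Ddit3 -0.26 to 0.21 in fibroblasts and -0.26 to 0.19 in mural nuclei, Trib3 -0.36 to 0.42 in endothelial nuclei and Atf4 -0.14 to 0.32 in mural nuclei. In nuclei with Gdf15, Ddit3 was -0.075 and Myh7 0.24 at 2000 UMIs, and Atf4 was 0.11 without thinning. The cause was not tested.

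Counts over all genes moved more. In cardiomyocytes 427 became 798 without the filter and 3952 with the block. In fibroblasts 486 became 2034 with the block and 113 at no more than 1% mitochondrial UMIs. In endothelial nuclei 21 became 93 by DESeq2, 177 without the filter, 788 with the block, 0 at no more than 1% mitochondrial UMIs and 0 to 224 with each library left out. In mural nuclei 17 became 0 by DESeq2, 176 with the block, 1 without control library 2, 39 without doublet removal and 0 under either stricter limit on nuclei. In macrophages 96 became 278 without the filter, 653 with the block, 1 at no more than 1% mitochondrial UMIs, 416 without doublet removal and 310 and 345 without either cKO library. Trib3, Chac1, Asns and Fgf21 had too few UMIs in cardiomyocytes for a test.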
